A study of Homo sapiens with 9 samples.

Results

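The cytosolic ribosome carries out protein synthesis outside mitochondria, and this account describes the messenger RNAs of 56 genes for its protein subunits, out of 19775 genes named on the arrays. The genes were chosen by a rule that uses the symbol alone and no measured value, though it was set with earlier results of these data known. The rule takes a letter code of RPL or RPS with a number and at most 1 of the letters A, X or L, or one of RPLP0, RPLP1, RPLP2 and RPSA. Of the 56 genes, 21 encode proteins of the small subunit (40S) and 35 of the large subunit (60S). Each gene was read through its brightest probe set, a group of short DNA probes for 1 transcript, out of 117 probe sets that named 1 of these genes and no other. A further 64 probe sets named a ribosomal protein gene together with another gene, in many cases a small nucleolar RNA gene in one of its introns, and were not used. RPLP0, RPSA, RPL5, RPL10 and RPS2 were among the genes not analysed here.

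RNA came from LiSa-2, a human liposarcoma cell line, and each sample was hybridised to its own Affymetrix U133 Plus 2.0 array. Plated cells received bovine testicular hyaluronidase (HAase), which cleaves the matrix polysaccharide hyaluronan, at 400 µg/mL for 6 h or 24 h, and a control group received phosphate-buffered saline (PBS) and was harvested at 24 h. Each group had 3 samples, all grown in medium with bovine serum. No sample with inactivated enzyme and no PBS sample at 6 h is among the 9, so at 6 h the enzyme and the time of harvest cannot be told apart. Nothing in the labels says whether replicates came from different cultures. The spread behind each p-value may therefore be technical only.

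Ribosomal protein mRNAs are among the most abundant in a growing cell, because every ribosome needs 1 copy of nearly every protein. In vertebrates most of them start with a 5′ terminal oligopyrimidine (TOP) tract, a C followed by a run of pyrimidines, through which the kinase mTOR and the RNA-binding protein LARP1 control mainly their translation. Free RPL5 and RPL11 can bind MDM2, the ubiquitin ligase of p53, so that a shortage of ribosome assembly can stabilise p53. A few members are paralogues with restricted or regulated expression: RPL3L in muscle, RPL10L in testis, RPL39L in testis and tumours, and RPS27L, a target of p53.

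The TOP tract is a sequence feature that the choice of genes did not use, and the following windows show it at the annotated start of 8 genes on which the results turn. Each window holds 15 bases before the start and 15 from it on, so it covers the 5′ flank and the first bases of exon 1, from the RefSeq annotation of GRCh38.p14. Capitals mark a run of at least 5 pyrimidines (C or T) that begins with a C within 10 bases of the start.
RPS27L, chr15:63157463-63157492, minus strand: aagttgatgccgagcgcagatcgcttgcag
RPL36, chr19:5690280-5690309, plus strand: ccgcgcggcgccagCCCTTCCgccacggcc
RPL12, chr9:127451392-127451421, minus strand: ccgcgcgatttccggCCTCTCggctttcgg
RPS3, chr11:75399503-75399532, plus strand: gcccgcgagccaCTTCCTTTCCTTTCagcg
RPS6, chr9:19380222-19380251, minus strand: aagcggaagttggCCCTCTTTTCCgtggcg
RPS24, chr10:78033848-78033877, plus strand: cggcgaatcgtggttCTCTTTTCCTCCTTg
RPL22, chr1:6199581-6199610, minus strand: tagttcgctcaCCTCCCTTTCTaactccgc
RPL22L1, chr3:170870181-170870210, minus strand: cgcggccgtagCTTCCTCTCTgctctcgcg
All of these except RPS27L have such a run, of 14 bases in RPS24 and RPS3 and of 7 in RPL36. RPL22L1 is a paralogue of RPL22 outside the 56 genes. Promoter sequences were matched by symbol for 48 of the 56 genes. Of these, 42 (87.5%) had the run, against 33.3% of all 27305 promoters of the same length. By a separate criterion, a C at the first base of the annotated transcript followed by at least 4 pyrimidines, whether or not the run began earlier, 33 (68.8%) matched, against 4.04%. RPL10L, RPL27, RPL6, RPS27L, RPS29 and RPS4X had none in this window, which says only that these letters are not there.

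Over the series, arrays of a group correlated at 0.9891 or more across genes, and arrays of different groups at 0.9736 at most. The 8 markers fixed for fat cells and liposarcoma were above the control probe sets on every PBS array, and their summed signal was 63786 to 66208 in PBS and 36863 to 41559 at 24 h. On the other hand, EPCAM and CDH1 (epithelial), PTPRC (leukocyte) and CDH5 (endothelial) were not above them on any of the 9 arrays. Of the epithelial, leukocyte and endothelial lists 1 marker each (KRT8, LCP1 and PECAM1) was above control on all PBS arrays. The summed signal of the 3 measured leukocyte markers was 60.7 to 124 in PBS and 208 to 229 at 24 h. That of the 3 endothelial markers was 254 to 315 and 375 to 399, most of it from PECAM1 (means of 236 and 349). By limma, LCP1 (log2 fold change 0.88, adjusted p = 0.00978) and PECAM1 (0.53, 4.96e-04) rose at 24 h. The endothelial marker VWF, under the filter on low signal and not tested, went the other way, from a mean of 51.7 in PBS to 12.8 at 24 h. The log2 difference between the 3′ and 5′ probe sets of GAPDH, which reads RNA integrity, averaged -0.106 on the 24 h arrays and 0.0115 on the PBS arrays (two-sided exact permutation p = 0.1, the smallest that 3 against 3 can give), and that of ACTB was lower at 6 h (1.37) than in PBS (1.64; exact permutation p = 0.1). Their part in the results was not tested. The deposited arrays share 1 trimmed mean signal, so the values say nothing of RNA per cell, and fewer cells and less RNA per cell cannot be told apart.

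Of the 56 genes, 54 lay above the filter on low signal, which removes the dimmest 30% of all genes, and were tested. The exceptions were RPL3L and RPL39L, whose signals were at most 11.6 on any array, below the control probe sets throughout. For 50 genes the probe set was bright, with a mean log2 signal of 13.46 to 15.38. The other 4 tested genes were read by dim probe sets: RPL10L, RPL27A, RPL36A and RPLP2, at 10.02 or less. Brightness of different probe sets does not rank the genes by abundance. Of the 56 probe sets, 42 carry a suffix that marks probes shared by several transcripts, and ribosomal protein genes have many processed pseudogenes, so signals of near-identical copies could be included.

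After 24 h of hyaluronidase the mRNAs of most ribosomal proteins differed from PBS by a small margin that did not pass the test, in cells where 40.3% of all tested genes passed it. Of the 54 tested members 2 rose, RPS27L and RPL36, and none fell (3.70% called; limma, Benjamini-Hochberg adjusted p under 0.05; at an unadjusted p under 0.05, 4 were higher and 0 lower). Over all 13842 tested genes 17.5% were called higher and 22.8% lower. The median log2 fold change of the members was 0.02, between -0.28 for RPL10L and 0.24 for RPS27L, against -0.03 over all tested genes. For 669 genes that are no members and had a mean log2 signal of at least 13, the median was 0.0075. The signals of PBS and 24 h arrays did not overlap for 7 members, all higher at 24 h (RPS27L, RPL36, RPL12, RPL8, RPL39, RPL14 and RPL29), while they did not overlap for 52% of all tested genes.

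**Figure D1:**
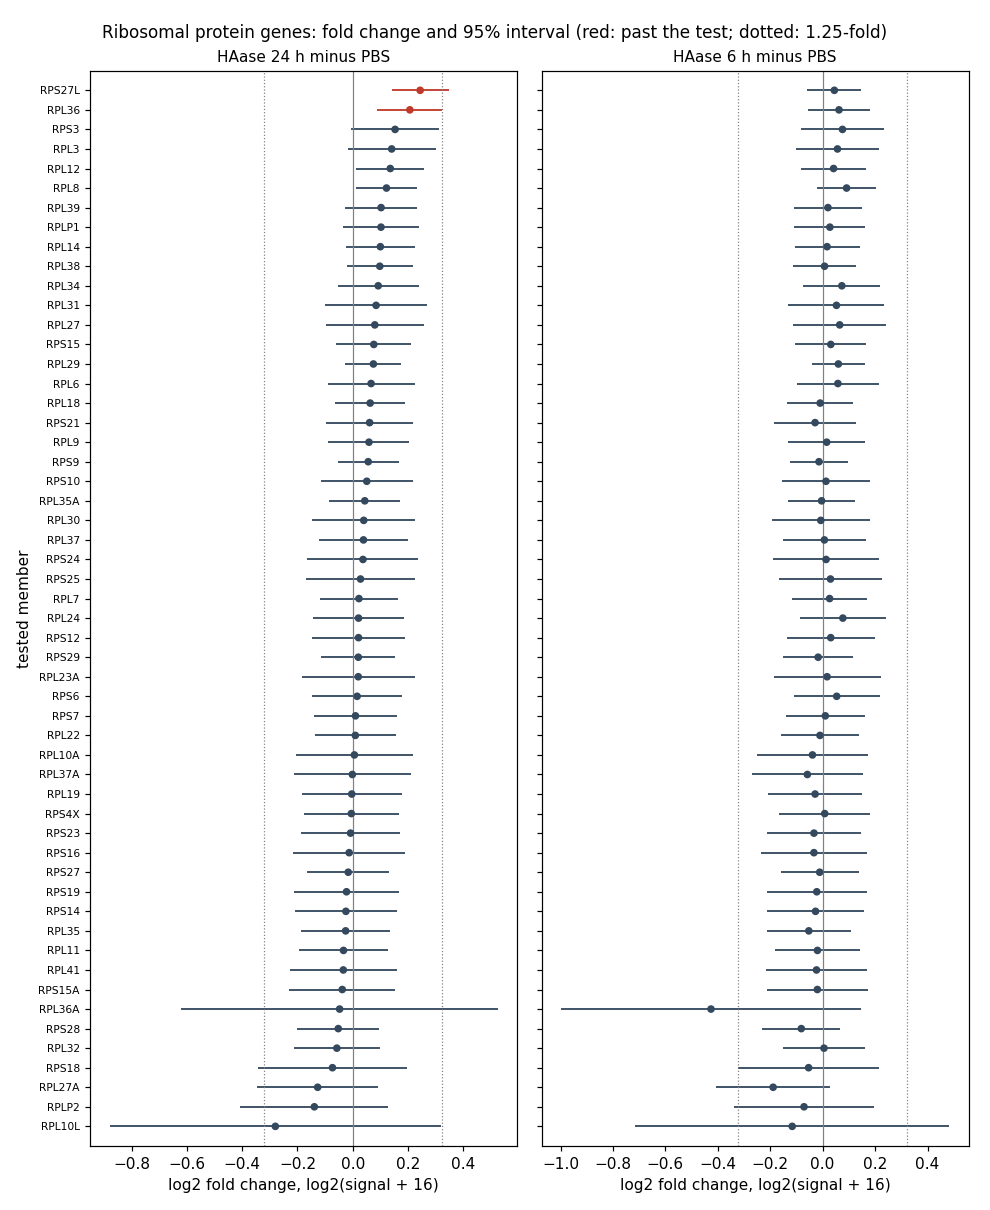
Log2 fold change on the log2(signal + 16) scale (x axis) with its 95% interval for each of the 54 tested genes (y axis), at 24 h (left) and 6 h (right) against PBS; red marks genes past the test and dotted lines a 1.25-fold change. RPS27L and RPL36 at 24 h are the only red points, and the widest intervals belong to genes with dim probe sets.

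The precision of the bright probe sets allows a bound as well as a missed test. The median standard error of a fold change was 0.068 on the log2 scale for the 50 genes with a bright probe set, and 0.10 over all tested genes. It was smaller, 0.057, for 669 genes that are no members with a mean log2 signal of at least 13, and 0.059 for 188 at 14 or more. For 47 of the 50 genes with a bright probe set the 95% interval at 24 h lay within a 1.25-fold change in either direction. Over all tested genes the interval lay within that bound for 20.9%, and the estimate itself was beyond it for 41%. The 3 bright exceptions were RPS27L and RPL36, whose intervals reached above it, and RPS18, whose interval ran from -0.34 to 0.20. At 6 h the interval stayed within the bound for 49 of the 50, and between 24 h and 6 h for all 50. Bright genes that are no members were also often within it, but as a set those with a mean log2 signal of at least 13 were dimmer than the members. Their median log2 signal on an array was 13.58 to 13.69, against 14.69 to 14.90 for the 50 members. Of 669 with a mean log2 signal of at least 13, 53.4% were within it at 24 h, 70.6% at 6 h and 68.6% between the times. Of 188 at 14 or more, the shares were 60.6%, 85.6% and 80.9%.

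The brightest of these probe sets are close to the top of the arrays' range, and whether ratios are compressed there was not tested. The dimmest of the 50, RPL36, read 10455 to 12837. The brightest probe set of each array lay between 40358 and 47942, and the brightest member between 37765 and 47288. Of 669 tested genes that are no members and had a mean log2 signal of at least 13 (a signal of 8176, well under that range), 25.9% were higher and 24.7% lower at 24 h, with log2 fold changes from -1.51 to 4.12. Of 188 such genes at 14 or more, 37.2% were called at 24 h, with changes from -1.28 to 2.09. These brightness limits were chosen after the values were seen.

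**Figure D2:**
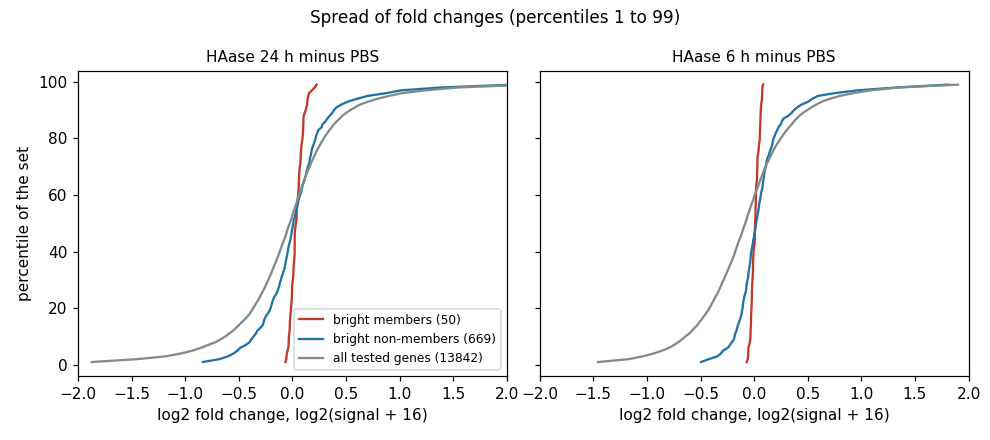
Percentile (y axis) of the log2 fold change (x axis) within the 50 members with a bright probe set, the 669 bright genes that are no members, and all 13842 tested genes, at 24 h (left) and 6 h (right) against PBS. The curve of the members is the steepest in both panels; drawn from percentile 1 to 99 it stays between -0.07 and 0.23, where the other curves run beyond 1 in the upper percentiles.

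RPS27L, the p53-inducible paralogue of the small-subunit protein RPS27, had the largest rise. Its signals were 16217, 16818 and 17021 in PBS, 16976, 17228 and 17415 at 6 h, and 19743, 19610.5 and 19902 at 24 h. All 24 h arrays lay above all PBS and 6 h arrays, and the 6 h arrays overlapped with PBS. The log2 fold change at 24 h was 0.24 ± 0.04 (SE; 1.18-fold, limma adjusted p = 0.00307). Its other probe sets, fitted among all probe sets, gave 0.39 (adjusted p = 0.0339) and 0.74 (0.00562), both higher. RPS27 itself, a zinc-finger protein of the 40S subunit, had means of 29584 ± 391 in PBS and 29292 ± 2018 at 24 h (SD, n = 3 each), with overlapping arrays and a 95% interval of the log2 fold change from -0.17 to 0.13. RPS27L kept its call in all of the 23 alternative settings tried, with log2 fold changes between 0.21 and 0.74. Among these settings, leaving out the members with dim probe sets repeats the main fit, so it could not change this call.

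RPL36, a protein of the 60S subunit, rose by less. Its signals were 10455, 10489 and 10680.4 in PBS, 11003, 11048 and 10969 at 6 h, and 11649, 12032 and 12837 at 24 h. No array of 1 group overlapped with another group, and the 24 h arrays were the highest. The log2 fold change at 24 h was 0.21 ± 0.05 (SE; 1.15-fold, adjusted p = 0.013). This call was lost under quantile normalization (0.13, adjusted p = 0.101) and when its probe sets were averaged (0.27, adjusted p = 0.089). It held when any 1 array was left out (adjusted p between 0.0149 and 0.0433).

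Behind these came genes that did not pass the test. RPL12, at the base of the stalk that recruits elongation factors, had signals of 21550.2, 21219 and 22474 in PBS, 22332, 22899.6 and 21908 at 6 h, and 24336, 24624 and 22735 at 24 h. Its 24 h arrays lay above its PBS arrays, with a log2 fold change of 0.14 ± 0.05 (SE, adjusted p = 0.0777). RPL8, a core protein near the peptidyl transferase centre, had 24039, 23667 and 25216 in PBS, 25818, 25590.1 and 26252 at 6 h, and 26019.8, 27163 and 26148 at 24 h. Its 24 h arrays also lay above PBS, by 0.12 ± 0.05 on the log2 scale (adjusted p = 0.0795). RPS3, which lines the entry channel of the mRNA, had 20448, 20417 and 22592 in PBS, 22096, 22554 and 22145 at 6 h, and 23695, 25068 and 21822 at 24 h. Here 24 h replicate 3 fell among the PBS arrays, and the log2 fold change was 0.15 ± 0.07 (adjusted p = 0.115).

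Without 24 h replicate 3, RPL12 (log2 fold change 0.17, adjusted p = 0.0449) and RPS3 (0.21, 0.0489) passed the test, so that 4 members were called higher. With a variance model that follows brightness (limma-trend, robust), RPL12, RPS3 and RPL8 passed too, which gave 5 higher. The share of all tested genes called under these settings is not given here, so the larger counts cannot be set beside it. The 24 h arrays lay at both ends in the brightness of the members. The median of the 50 bright members was 29096, 30622 and 26452 on 24 h replicates 1, 2 and 3, between 26933 and 29710 in PBS and between 27267 and 29073 at 6 h. Of the 50 genes, 25 had their lowest signal of all 9 arrays on 24 h replicate 3, and 35 their highest on 24 h replicate 2. Over the 9 arrays the median correlation between pairs of these 50 genes was 0.648, against 0.079 for the bright genes that are no members. All pairs were read on the same 9 arrays. This is a description, and the source of the correlation was not tested. The log2 difference between the 3′ and 5′ probe sets of GAPDH was smallest on 24 h replicate 3 (-0.207). For GAPDH that array thus had the least 3′ signal relative to 5′ signal, which by itself does not mark it as the array of poorest RNA. For ACTB the smallest difference was on 6 h replicate 3 (1.14), and 24 h replicate 3 read 1.38. The part of these differences was not tested.

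**Figure D3:**
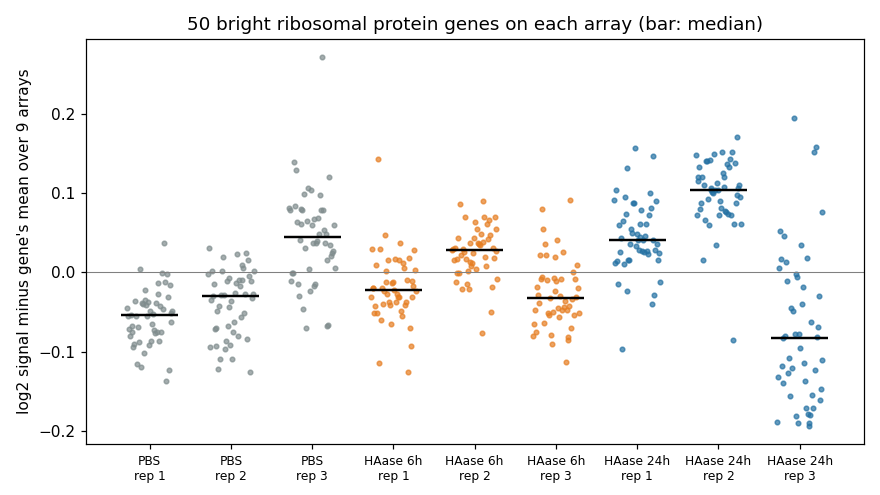
Log2 signal of each of the 50 members with a bright probe set minus that gene's mean over the 9 arrays (y axis), by array (x axis), with 1 point per gene and a bar at the median. The medians run from -0.08 on 24 h replicate 3 to 0.10 on 24 h replicate 2, 2 arrays of the same group.

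Among the other proteins of the stalk, RPLP1 gave signals of 26547, 26374 and 27261 in PBS, 27025, 28239 and 26476 at 6 h, and 28386, 30591 and 27172 at 24 h, with 24 h and PBS overlapping and a log2 fold change of 0.10 (95% interval -0.03 to 0.24). RPLP2 was read by a dim probe set, with means of 295 ± 18.5 in PBS and 268 ± 39.4 at 24 h (SD, n = 3 each) and overlapping arrays. RPL11, which forms a particle with 5S RNA and RPL5, had 28073, 29779 and 30778 in PBS, 29752, 29762 and 27874 at 6 h, and 29402, 30653 and 26616 at 24 h. Its arrays overlapped between all groups, and the interval of its log2 fold change at 24 h ran from -0.19 to 0.13. RPS6, the substrate of S6 kinase, had 33197, 33891 and 35313 in PBS, 35361, 35998 and 34879 at 6 h, and 35046, 37406 and 31306 at 24 h. Its change at 24 h was 0.02 (95% interval -0.15 to 0.18).

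At the rim of the tunnel through which the new chain leaves the ribosome, 7 of the 9 listed genes were measured (RPL19, RPL22, RPL23A, RPL31, RPL35, RPL38 and RPL39). By limma, none rose or fell at 24 h (adjusted p of 0.173 or more; 0 at an unadjusted p under 0.05), and their log2 fold changes lay between -0.03 and 0.10. RPL39, which lies in the tunnel itself, had means of 34851 ± 382 in PBS and 37454 ± 2224 at 24 h (SD, n = 3 each), with no overlap of the arrays and a 95% interval of the change from -0.03 to 0.23. RPS23, a protein of the decoding centre, was among the brightest, with 42448 ± 611 and 42335 ± 3982, a log2 fold change of -0.01 (95% interval -0.19 to 0.17). RPL3, which reaches into the peptidyl transferase centre, gave 0.14 ± 0.07 (SE, adjusted p = 0.146). By subunit, 1 of 21 tested 40S genes rose with a median of 0.02, and 1 of 33 tested 60S genes with a median of 0.04, where 17.5% of all tested genes were higher and 40.3% called.

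After 6 h of hyaluronidase none of the 54 tested members was called by limma in either direction, and 0 had an unadjusted p under 0.05, where 15% of all tested genes were called higher and 27.4% lower. The median log2 fold change of the members was 0.01, against -0.08 over all tested genes and 0.02 over the 669 bright genes that are no members. The smallest adjusted p was 0.148, for RPL27A, whose dim probe set gave 1117, 1082 and 1101 in PBS, 1033, 1027 and 842 at 6 h, and 986, 1102 and 936 at 24 h. Its 6 h arrays lay below its PBS arrays, and the log2 fold change was -0.19 ± 0.09 (SE). RPL8, RPL29 and RPL36 were also without overlap, in the other direction, with 0.09, 0.06 and 0.06. That makes 4 of the 54 members without overlap, against 54.2% of all tested genes. RPL36A had the lowest estimate, -0.43 ± 0.25 (SE, adjusted p = 0.207), from a dim probe set above the control level on 2 of 3 arrays at 6 h. Among the 669 bright genes that are no members 22.4% were higher and 12.7% lower at 6 h. Of the 188 such genes at a mean log2 signal of 14 or more, only 16.5% were called at 6 h.

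Between 24 h and 6 h of hyaluronidase 1 member differed, RPS27L, which was higher at 24 h by 0.20 ± 0.04 on the log2 scale (SE, adjusted p = 0.0106). Of all tested genes 19.7% were higher and 13.3% lower at 24 h than at 6 h. RPL36 was higher at 24 h on all arrays but did not pass (0.14 ± 0.05, adjusted p = 0.064). Arrays of the times did not overlap for RPS27L and RPL36, against 45.9% of all tested genes. By limma no member was lower, and 0 were lower at an unadjusted p under 0.05, with 2 higher. All 3 comparisons share arrays, so their values are not independent of each other.

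Of 5 tested ribosomal protein genes outside the symbol rule, RPL22L1 had the largest change. RPL22L1, the paralogue of the large-subunit protein RPL22, had signals of 2335, 2166 and 2166 in PBS, 3497, 3288 and 3336 at 6 h, and 3688, 3749 and 3598 at 24 h. Both HAase groups lay above PBS on every array, with log2 fold changes of 0.60 ± 0.05 at 6 h and 0.72 ± 0.05 at 24 h (SE; 1.65-fold at 24 h, adjusted p = 2.09e-05). RPL22 itself had 22554, 23403 and 25034 in PBS, 23794, 23625 and 23007 at 6 h, and 24059, 25098 and 22307 at 24 h. Its arrays overlapped throughout, and the 95% interval of its log2 fold change at 24 h ran from -0.14 to 0.16.

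RPL7L1, a nucleolar relative of RPL7, rose at both times, 1.25-fold at 6 h (adjusted p = 0.00758) and 1.24-fold at 24 h (0.00934). RPL26L1, a close copy of RPL26, rose at 24 h (1.12-fold, adjusted p = 0.0215). FAU, whose product carries the small-subunit protein RPS30 behind a ubiquitin-like part, gave 0.10 at 24 h (adjusted p = 0.176), and RPL36AL gave -0.01 (0.939). In all, 3 of the 5 tested genes of this list rose at 24 h, where 17.5% of all tested genes were higher and 40.3% called, and 2 at 6 h, where 15% were higher and 42.4% called. RPL10L, the autosomal copy of RPL10, lay near the control level, at 109, 108 and 52.6 in PBS, 93.9, 83.5 and 60.1 at 6 h, and 53.6, 73.9 and 78.6 at 24 h. Its arrays overlapped between all groups.

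**Figure D4:**
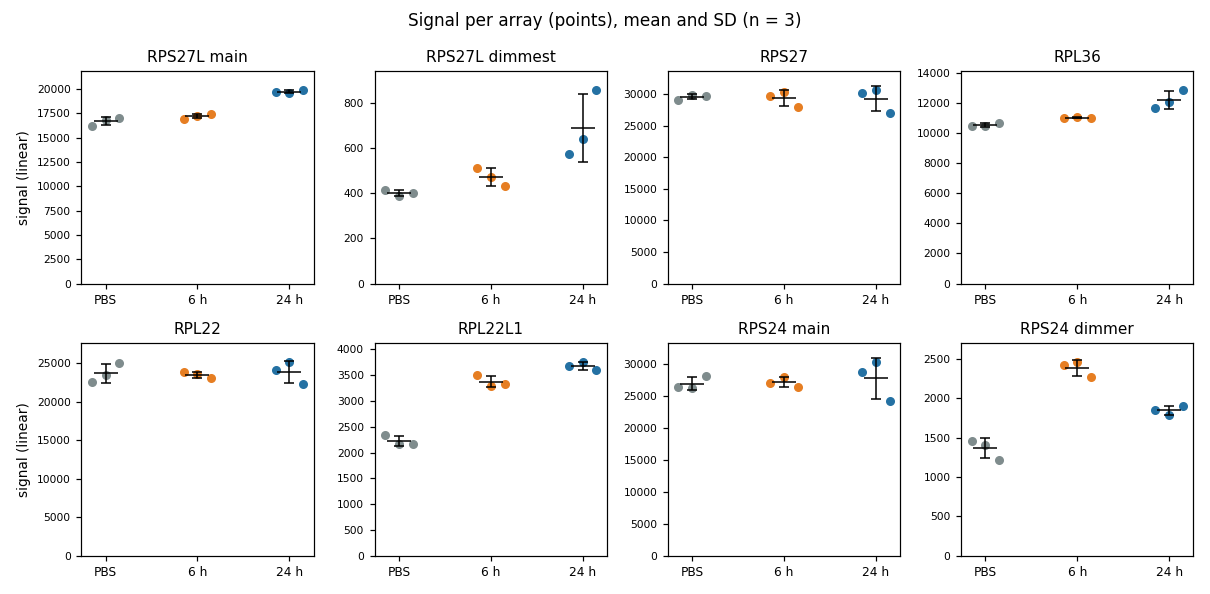
Linear signal (y axis, from 0) on each of the 3 arrays of PBS, HAase 6 h and HAase 24 h (x axis), with the mean and SD, for RPS27L (its main and its dimmest probe set), RPS27, RPL36, RPL22, RPL22L1 and RPS24 (its main and its dimmer probe set). RPS27L, RPL36, RPL22L1 and the dimmer RPS24 probe set are higher at 24 h than in PBS without overlap, while RPS27, RPL22 and the main RPS24 probe set overlap.

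Dimmer probe sets of the same genes did not all follow the main one. Of the 61 others, 55 were above the filter. Among these, 7 were higher and 2 lower at 24 h, and 6 were higher and 0 lower at 6 h, in a fit of all 32548 probe sets above the filter, of which 13.2% were higher and 17% lower at 24 h, and 12% and 18.5% at 6 h. Between the times 2 were higher and 3 lower at 24 h, against 11.9% and 9.87%. The clearest was a dimmer probe set of RPS24, a 40S protein whose transcripts are alternatively spliced. It read 1462, 1409.9 and 1219.9 in PBS, 2421, 2454 and 2263 at 6 h, and 1844, 1791 and 1899.7 at 24 h. Both HAase groups lay above PBS, the 6 h arrays highest, with log2 fold changes of 0.80 ± 0.08 at 6 h (SE, adjusted p = 2.64e-04) and 0.43 ± 0.08 at 24 h (0.00527). The main RPS24 probe set, at 26928 ± 1066 in PBS, gave 0.01 at 6 h and 0.04 at 24 h.

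A dimmer RPL37A probe set had the same order, with 708, 717 and 576 in PBS, 1042, 1134 and 1047 at 6 h, and 880.1, 852 and 894 at 24 h. Its log2 fold changes were 0.68 at 6 h (adjusted p = 0.00113) and 0.39 at 24 h (0.0154), where the main one gave -0.06 and -0.0017. A middle probe set of RPL31 rose at 6 h alone among the comparisons with PBS (0.37, adjusted p = 0.00646), and another fell at 24 h (-0.61, 0.0065). A dim RPL37 probe set rose at 6 h only (0.50, adjusted p = 0.0344; -0.12 at 24 h, 0.579). Both dim RPS14 probe sets that passed lay near the control level in PBS, on 1 and 2 of 3 arrays above it, so the sizes of their rises at 24 h (1.43 and 0.48) are uncertain. The second RPS21 probe set rose at 24 h (0.23, adjusted p = 0.0361) and that of RPS10 fell (-0.29, 0.0434). Which transcripts these probe sets detect is not given in the sources used here.

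**Figure D5:**
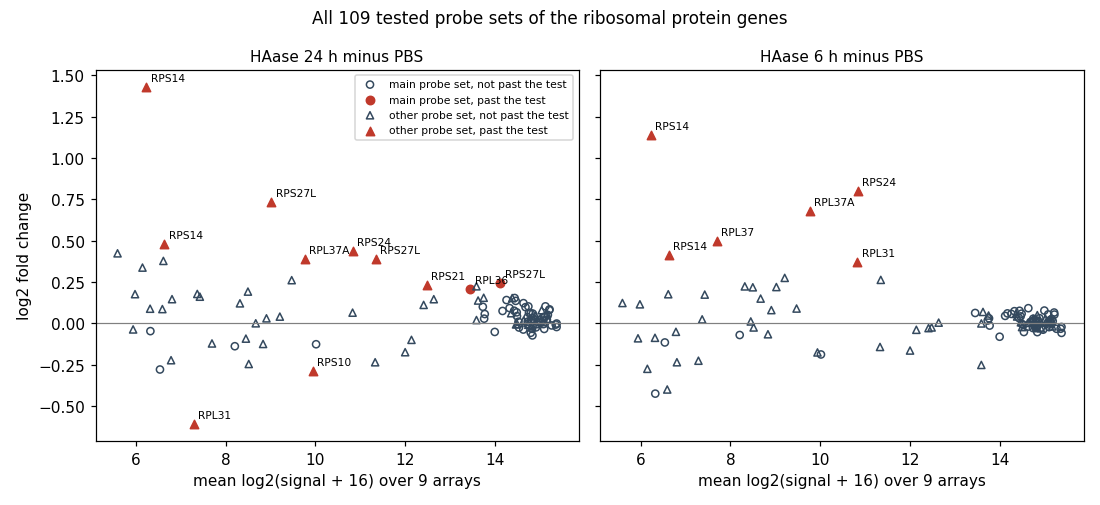
Log2 fold change (y axis) of each of the 109 tested probe sets against its mean log2 signal over the 9 arrays (x axis), at 24 h (left) and 6 h (right) against PBS; circles are the main probe set of a gene, triangles the others, and red marks those past the test among all probe sets. The bright probe sets on the right of each panel form a narrow band around 0, and the largest change in each panel is that of a dim RPS14 probe set (1.43 at 24 h and 1.14 at 6 h).

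Other mRNAs with a TOP tract, mostly for elongation and initiation factors, formed a list of 14 tested genes. Of these, 1 rose at 24 h, the histone chaperone gene NAP1L1 (1.15-fold, adjusted p = 0.0378), and none changed at 6 h by limma (3 at an unadjusted p under 0.05, 2 higher and 1 lower). Of all tested genes 40.3% were called at 24 h and 42.4% at 6 h. The median log2 fold change was 0.05 at 24 h and 0.01 at 6 h, and EEF1A1, the elongation factor that brings tRNA to the ribosome, gave -0.01 and -0.03.

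Regulators of these mRNAs went both ways, with 3 of 12 higher and 2 lower at 24 h, and 1 higher and 4 lower at 6 h. The 41.7% called at each time is close to the 40.3% and 42.4% of all tested genes. EIF4EBP1, the translation inhibitor 4E-BP1 that mTOR inactivates, had signals of 1718, 1789.8 and 1723 in PBS, 1602, 1544 and 1584 at 6 h, and 3458, 3751 and 3791 at 24 h. The 24 h arrays were above all others, 2.09-fold over PBS (adjusted p = 2.48e-06). LARP1B rose 1.44-fold at 24 h (5.46e-04), while the relative EIF4EBP2 was 1.6-fold lower (0.00384). TIA1, which binds these mRNAs under stress, was 1.68-fold lower at 6 h (2.28e-04). LARP1 was 1.17-fold lower at 6 h (0.00678) and gave 0.02 at 24 h (0.728).

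Of 8 chaperones of single ribosomal proteins, 3 rose and 1 fell at 24 h, and 2 rose and 1 fell at 6 h. This is 50% and 37.5% of the list, near the 40.3% and 42.4% of all tested genes. LTV1, which handles RPS3 in 40S assembly, rose 1.47-fold at 6 h and 1.17-fold at 24 h (adjusted p = 1.63e-04 and 0.0122). PDCD2L, a relative of the RPS2 chaperone PDCD2, was 1.29-fold lower at 6 h and 1.28-fold higher at 24 h (0.00396 and 0.00421), and TSR2, which carries RPS26, was 1.29-fold lower at 24 h (0.00297). Among 7 tested genes of ribosome preservation and rescue 3 rose at 24 h (42.9%, against 40.3% of all tested genes called) and 2 at 6 h (28.6%, against 42.4%). PELO, which frees stalled ribosomes, had 3355, 3282 and 3301 in PBS, 4659, 4392 and 4608 at 6 h, and 6448, 6466 and 6330.4 at 24 h. Its groups were fully apart, with 1.37-fold at 6 h and 1.93-fold at 24 h (adjusted p = 1.95e-06 at 24 h). ABCE1, which splits ribosomes after termination, rose 1.41-fold and 1.46-fold.

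On the axis from RPL5 and RPL11 to p53, 1 of 3 tested genes rose at each time (33.3%, against 40.3% of all tested genes called at 24 h and 42.4% at 6 h). CDKN1A, the cell cycle inhibitor p21 and a p53 target like RPS27L, rose 3.38-fold at 6 h and 3.04-fold at 24 h (adjusted p = 7.47e-07 and 7.83e-07), while MDM2 gave log2 fold changes of 0.09 and 0.07 (adjusted p = 0.592 and 0.69) and MDM4 0.14 and 0.17 (0.351 and 0.268). NOP53 lay under the filter and was not tested.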

How the data were processed

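The authors deposited linear signal intensity for each probe set, taken from CHP files per the series design. The summarisation algorithm is not given in the sources used here. As deposited, all 9 arrays have a trimmed mean near 500.07. The number of arrays limits the precision. Of 54675 probe sets 62 are controls. Of the others, 41091 have 1 symbol in the platform annotation, 1801 several and 11721 none there, and only the first were used for genes. All 56 members matched a RefSeq gene ID.

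Signals were used as log2(signal + 16), so fold changes understate those of dim genes. Genes under the 30th percentile of mean signal (32.2) were left out. Group means were fitted to the 9 arrays over 13842 genes with limma 3.58.1 in R 4.3.3 (lmFit, eBayes), with Benjamini-Hochberg adjustment per comparison. Genes were called at an adjusted p under 0.05. The fit was tested on simulated data. The control level is the brightest of 27 Bacillus subtilis probe sets on an array, at most 65.0. Named were members past the test without overlap (up to 10 in each direction) and members of fixed role lists; the other probe sets, and RPL8, RPL14, RPL27A, RPL29, RPL36A, RPS18 and LARP1, were named after their values were seen. Members, lists and tests were chosen with earlier results of these data known.

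Alternatives were other pseudocounts, filters, normalizations, probe set choices and variance models, only the arrays compared, the replicate number as a block, and leaving out each array. The members with dim probe sets were also left out of the counts and medians, without a new fit.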

Additional observations from a re-analysis of the deposited data

Results flagged for a closer look

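Values are log2 fold changes of 24 h over 6 h of hyaluronidase past limma's test of that difference (adjusted p under 0.05), since for these genes the change from PBS differed between the times. The groups of 3 arrays are too small for a check of single outlying arrays. Among the ribosomal protein genes the difference was 0.20 for RPS27L, and 0.52 for its dimmest probe set. Other probe sets of the members gave 0.26 for RPS21, -0.31 for RPL31, -0.36 for RPS24 and -0.62 for RPL37.

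Of the other listed genes, those higher at 24 h than at 6 h were EIF4EBP1 (1.21), PDCD2L (0.72), AAMP (0.52), PELO (0.49), LARP1B (0.38), TIA1 (0.36), EIF4B (0.35), RPL26L1 (0.26), LARP1 (0.25) and RPS6KB1 (0.24). Those lower were LTV1 (-0.32), BCCIP (-0.25), TSR2 (-0.21) and ZNF598 (-0.20).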

How the results depend on the processing

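Counts of members called were checked to within 1.5 times, and medians to within the spread of arrays (0.077, log2). They stayed within these limits in 193 checks and moved further in 14. That spread is larger than the medians themselves, so a median could change sign and still count as kept. On leaving out 1 array, the median against PBS ran from -0.018 to 0.083 at 24 h and from -0.014 to 0.035 at 6 h. Between the times it ran from -0.011 to 0.082. The signs of the medians are therefore not settled. Reading genes by the brightest probe set without a suffix gave 6 higher and 1 lower at 24 h and 3 higher at 6 h. Between the times it gave 2 higher and 3 lower. This choice replaces bright probe sets by dimmer ones and also leaves out those with probes shared by several transcripts. RPL31 then turned lower, by -0.61 at 24 h and -0.38 against 6 h. The mean of a gene's probe sets gave 1 higher at 6 h, and 2 higher and 1 lower between the times, the lower one RPL31 (-0.22). Limma-trend gave 5 higher at 24 h and 2 between the times, as many as the 50th percentile filter gave there (2). Quantile normalization gave 1 lower at 6 h, RPS28. Cyclic loess, which removes shifts with brightness, moved the median at 6 h from 0.01 to -0.085, with no member called there. The cause of these differences was not tested, and the share of all genes called under each setting is not given here.

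Leaving out each array gave 2 to 4 members higher at 24 h, and otherwise the main counts. Same-numbered arrays did not deviate together (correlations across genes from -0.049 to 0.037), and with the replicate number as a block the counts were 2, 0 and 1 higher and 0 lower, as without it.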
